A study of Mus musculus with 8 samples.

Results

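The BCL2 family holds the proteins that decide whether the outer mitochondrial membrane is opened during programmed cell death. A set of 10 genes of it was followed here: the BH3-only genes Bbc3, Pmaip1, Bid, Bad and Bcl2l11, the pore formers Bax and Bak1, and the pro-survival genes Bcl2, Bcl2l1 and Mcl1. They were chosen by name, with earlier results of these data known. Every probe that the platform's annotation or the RefSeq gene table pairs with one of them was taken. This gave 25 probes for 9 of the 10 genes, out of 25697 probes and 16593 named genes on the arrays. The annotation used here names no probe for Bax, so Bax was not analysed. Expression was measured on Illumina bead arrays in whole hearts of 2-month-old mice on the C57BL/6J background, 1 array per heart. In 4 mice a transgenic short hairpin RNA against Taz, switched on by doxycycline, lowered tafazzin, the enzyme that remodels the mitochondrial lipid cardiolipin. The other 4 mice were wild-type littermates. Doxycycline was in the food of both groups at 625 mg/kg, but the wild-type mice carried no hairpin, and a control hairpin was not part of the comparison. The labels do not name the promoter of the transgene, the cells in which it acts, or the sex of the mice.

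In a cell that is not dying, the pro-survival proteins hold the pore formers Bax and Bak1 in check. BH3-only proteins are sensors of stress or lost growth signals, and they bind the pro-survival proteins or activate the pore formers directly. Once a pore forms, cytochrome c leaves the mitochondrion and caspases are activated. Cardiolipin, the lipid that tafazzin remodels, is known to hold cytochrome c at the inner membrane and to be a docking lipid for tBid, the cut form of Bid. Heart muscle cells are hardly replaced after birth, and several BCL2 family proteins, Mcl1 among them, are known to be needed for their survival.

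Of the 25 probes, 10 passed the detection filter (a detection p-value below 0.05 in 4 or more of 8 hearts) and were tested. They stood for 7 genes: Bbc3, Pmaip1, Bad, Bcl2l11, Bcl2, Bcl2l1 and Mcl1. The only Bak1 probe and both Bid probes were not tested. Of the 15 untested probes, 7 were detected on no array, 6 on 1 array and 2 on 2 arrays, and their deposited signals ran from -31.3 to 26.5. The arrays stood close to each other: the median deposited signal of all probes was 8.47 to 10.1 in Taz knockdown hearts and 8.40 to 10.1 in wild-type hearts, and log2 intensities correlated at 0.983 to 0.990 between knockdown hearts and 0.980 to 0.986 between wild-type hearts. Knockdown heart 1 was the brightest array, with an upper quartile of 58.4, against 38.9 to 46.3 in the other knockdown hearts and 37.1 to 50.1 in the wild-type hearts. Taz itself, by its brighter probe, had signals of 53.3 to 69.9 in knockdown hearts and 477 to 639 in wild-type hearts. With 4 hearts a group, the number of arrays sets how precise each value can be.

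**Figure D1:**
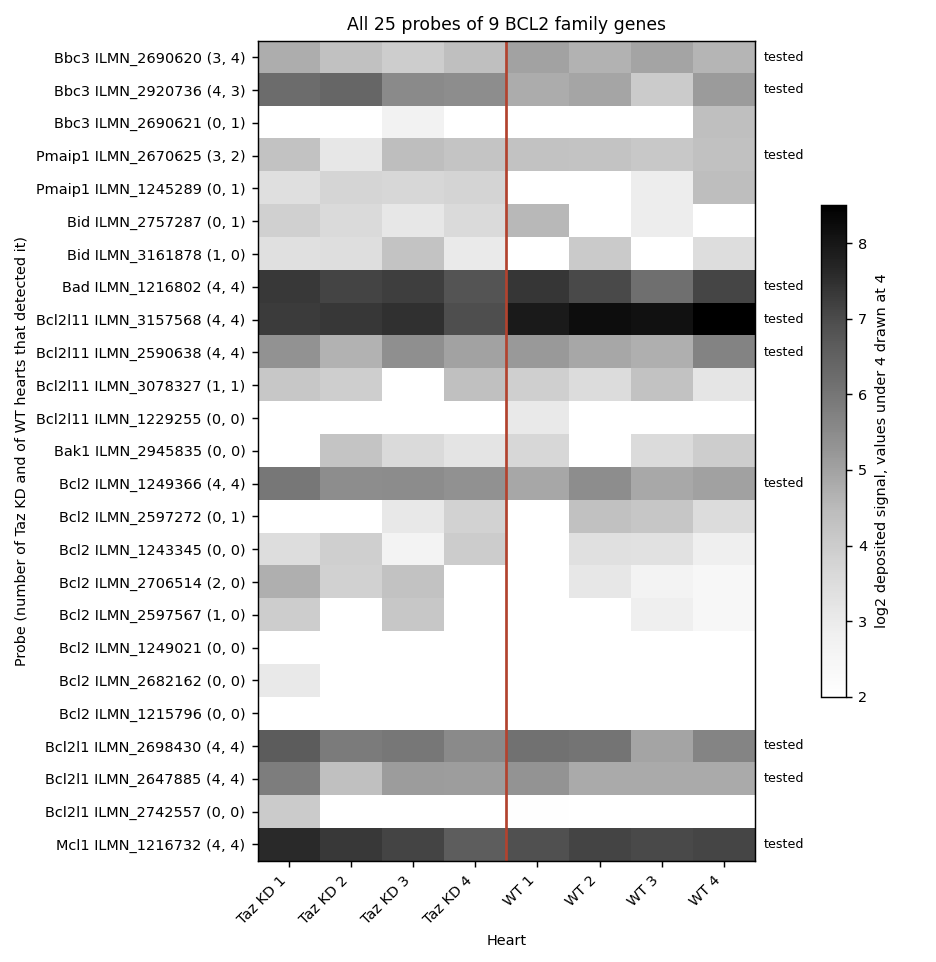
Deposited signal of all 25 BCL2 family probes (rows) in 4 Taz knockdown and 4 wild-type hearts (columns), as shades on a log2 scale with values under 4 drawn at 4; the numbers in brackets are the knockdown and wild-type hearts that detected the probe. The 10 tested probes are marked, and 7 of the 8 Bcl2 probes, both Bid probes and the Bak1 probe are pale in both groups.

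The comparison of Taz knockdown with wild-type hearts asks whether transcripts of these regulators differ when tafazzin is low. Of the BH3-only genes 1 was higher and 1 lower: Bbc3, the gene of PUMA, was 1.76-fold higher by 1 probe, and Bcl2l11, the gene of BIM, was 1.86-fold lower by 1 probe. Each of these genes has a further tested probe that did not pass. The other 5 tested genes (Pmaip1, Bad, Bcl2, Bcl2l1 and Mcl1) did not pass. Differences were tested with limma over all 9397 probes that passed the filter, and a probe passed at a Benjamini-Hochberg adjusted p below 0.05. The hearts were measured whole, so fewer cells of a type cannot be told apart from less RNA per cell. Among all 6889 tested genes, 3.61% had a probe that passed as higher and 3.70% a probe that passed as lower, or 7.32% in either direction. The members' count of 1 higher and 1 lower among 7 is too small to be read as more or less than that background. Counted by probe, 2 of 10 passed, where 6.58% of all tested probes did (3.42% higher and 3.16% lower). The median difference of the 10 probes was 0.10 on the log2 scale, beside -0.0094 for all tested probes.

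**Figure D2:**
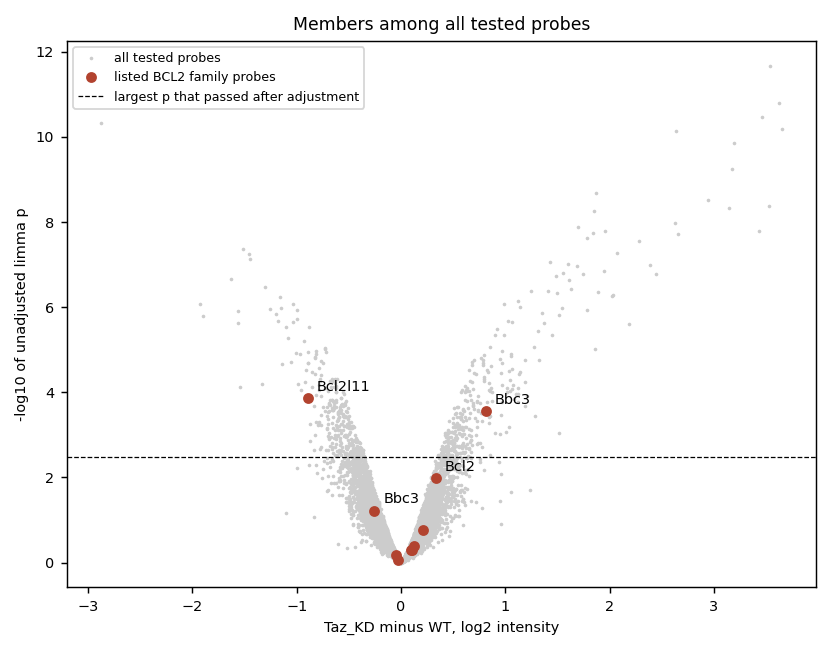
Difference in log2 intensity, Taz knockdown minus wild type (horizontal axis), against -log10 of the unadjusted limma p (vertical axis) for all 9397 tested probes in grey and the 10 BCL2 family probes in red. One Bbc3 probe at 0.81 and one Bcl2l11 probe at -0.89 lie above the dashed line of the largest p that passed, and the Bcl2 probe at 0.33 lies below it.

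Bbc3 encodes PUMA, a BH3-only protein that binds all the main pro-survival proteins and is known as a target of p53 and of the stress factor CHOP. Its probe ILMN_2920736 had deposited signals of 75.5, 82.7, 46.0 and 43.7 in knockdown hearts 1 to 4, against 27.5, 30.9, 16.3 and 35.4 in wild-type hearts 1 to 4. All knockdown hearts lay above all wild-type hearts, and the lowest value, in wild-type heart 3, was the only one not detected. After normalization the log2 intensity was 6.22 ± 0.27 in knockdown hearts and 5.41 ± 0.22 in wild-type hearts (SD, n = 4 each). By this probe Bbc3 rose by 0.81 log2 units (SE 0.156), which is 1.76-fold with a 95% interval of 1.38 to 2.23 (limma adjusted p = 0.0105). The exact two-sided permutation p over the 70 assignments of hearts was 0.0286, the smallest they can give. Its size depends on how dim signals are treated: the Bbc3 difference was 0.51 with an offset of 50 and 0.45 without the normexp background correction, and it passed in both. The call held with any 1 heart left out (0.69 to 0.89, limma adjusted p from 0.0140 to 0.0335).

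The other tested Bbc3 probe, ILMN_2690620, did not follow. Its signals were 27.3, 20.0, 15.6 and 20.7 in knockdown hearts and 31.5, 25.2, 31.4 and 24.3 in wild-type hearts, all close to the limit of detection (3 of 4 knockdown and 4 of 4 wild-type hearts detected it). In wild-type hearts ILMN_2920736 was as dim, with a mean signal of 27.5 beside 28.1 for ILMN_2690620. The difference was -0.26 on the log2 scale with a 95% interval of -0.53 to 0.013 (limma adjusted p = 0.265). After normalization the groups did not overlap by this probe either, with knockdown hearts below. The third probe, ILMN_2690621, was detected in 1 wild-type heart and in no knockdown heart. With the 2 tested probes averaged into 1 value, Bbc3 stood at 0.28 and did not pass (limma adjusted p = 0.142), so the increase rests on 1 of 3 probes.

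Bcl2l11 encodes BIM, a BH3-only protein made in several spliced forms, which is known to be kept on the cytoskeleton by dynein light chain and to be induced by FOXO factors when growth signals fall. The probe ILMN_3157568 had signals of 155, 164, 180 and 123 in knockdown hearts, against 243, 291, 278 and 364 in wild-type hearts. The groups did not overlap, with the knockdown hearts lower. The log2 intensity was 7.39 ± 0.20 in knockdown hearts and 8.29 ± 0.29 in wild-type hearts (SD, n = 4 each). By this probe Bcl2l11 fell by 0.89 log2 units (SE 0.157). That is 1.86-fold lower, 95% interval 1.46 to 2.36, with a limma adjusted p of 0.00665 and an exact permutation p of 0.0286. The call held with any 1 heart left out (-1.02 to -0.81, limma adjusted p at most 0.0238).

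The other tested Bcl2l11 probe, ILMN_2590638, which the platform pairs with another RefSeq transcript of the gene, had signals of 40.7, 25.2, 42.0 and 31.6 in knockdown hearts and 36.6, 29.5, 26.4 and 51.2 in wild-type hearts. The groups overlapped, and the difference was -0.03 on the log2 scale (95% interval -0.36 to 0.30, limma adjusted p = 0.938). Of the remaining probes ILMN_3078327 was detected in 1 heart of each group and ILMN_1229255 in none. The platform pairs both of these dim probes with the same transcript as ILMN_3157568, the probe that passed. With the tested probes averaged, Bcl2l11 stood at -0.46 and did not pass (limma adjusted p = 0.0656). The decrease therefore also rests on 1 probe, the brightest of 4.

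Whether probes of the same gene gave different results was tested within hearts, by taking the log2 difference between the tested probes in each heart and comparing it between groups. There were 3 genes with a pair of tested probes. For Bbc3 the difference, ILMN_2690620 minus ILMN_2920736, was -1.01 ± 0.28 in knockdown hearts and 0.065 ± 0.42 in wild-type hearts (SD, n = 4 each). For Bcl2l11, ILMN_3157568 minus ILMN_2590638 was 1.76 ± 0.25 in knockdown hearts and 2.62 ± 0.29 in wild-type hearts. In both genes the groups did not overlap (exact permutation p = 0.0286, Benjamini-Hochberg adjusted 0.0429 over 3 genes). For Bcl2l1 the pair differed by 0.64 ± 0.27 in knockdown hearts and 0.53 ± 0.31 in wild-type hearts (exact permutation p = 0.6, adjusted 0.6). The probes of Bbc3 and of Bcl2l11 thus gave group differences unlike each other. The platform pairs all Bbc3 probes with the same RefSeq transcript, and the tested Bcl2l11 probes with different ones. The probe sequences were not used here, so which transcripts each probe reads was not checked.

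**Figure D3:**
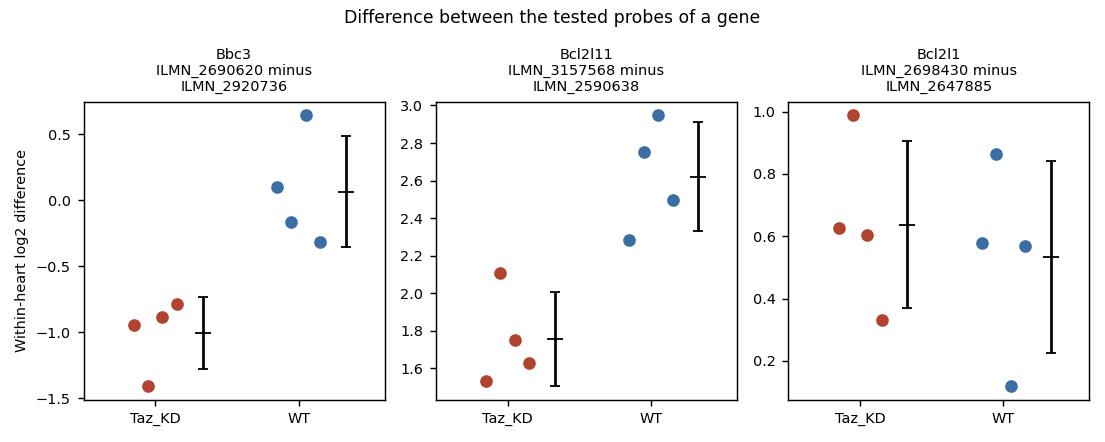
Log2 difference between the tested probes of Bbc3, Bcl2l11 and Bcl2l1 in each heart, Taz knockdown left of wild type, with mean and SD (n = 4 each) in black. The groups are apart for Bbc3 (means -1.01 and 0.065) and Bcl2l11 (1.76 and 2.62) and overlap for Bcl2l1 (0.64 and 0.53).

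The promoters of Bbc3 and Bcl2l11, the members with a probe that passed, are shown as sequence. Both are known FOXO target genes, and the 1 probe of each that passed moved in opposite directions. In RefSeq (GRCm38.p6), the 250 bases before the start site were searched for the FOXO core TGTTTAC on both strands, and the match stands in capitals. Bbc3 has 3 start sites in the table, and 1 of its windows, chr7:16310011-16310260 on the plus strand, holds the core, whose last base lies 161 bases before the start. Bcl2l11 has 2 start sites, and 1 of its windows, chr2:128125788-128126037 on the plus strand, holds it on the opposite strand, 221 bases before the start by the same measure.
Bbc3: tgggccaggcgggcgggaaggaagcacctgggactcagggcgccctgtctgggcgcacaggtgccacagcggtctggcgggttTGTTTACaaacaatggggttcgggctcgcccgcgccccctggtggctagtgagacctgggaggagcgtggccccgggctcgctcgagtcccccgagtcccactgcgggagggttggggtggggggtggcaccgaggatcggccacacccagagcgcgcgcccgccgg
Bcl2l11: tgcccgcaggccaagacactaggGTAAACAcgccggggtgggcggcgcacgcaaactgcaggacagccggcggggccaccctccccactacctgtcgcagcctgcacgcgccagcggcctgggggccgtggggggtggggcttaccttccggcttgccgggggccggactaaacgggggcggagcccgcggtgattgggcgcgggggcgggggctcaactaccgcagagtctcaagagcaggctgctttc
Both windows are rich in G and C (72.4% and 72.0%). The FOXO core was in 2 of the 15 windows found for 9 of the 10 genes and in 3.17% of all 32851 windows in the table. Pmaip1 had no window in this search, which left 1 chromosome out of the member windows but not out of all windows. None of the motifs was therefore looked for in Pmaip1. The core of the element bound by ATF4 and CHOP, TGATGNAA, was in none of the 15 windows and in 3.45% of all windows. The GC box GGGCGG was in 10 of the 15, beside 32.7% of all, and the TATA box TATAAA in none, beside 12.4% of all. A match in these letters is a description of the sequence only. Foxo1, the FOXO gene tested here, stood at -0.06 on the log2 scale (95% interval -0.34 to 0.22, limma adjusted p = 0.840). This is a transcript value only. FOXO protein activity was not measured, and the part of FOXO factors in the values of Bbc3 and Bcl2l11 was not tested.

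The remaining BH3-only genes gave no call. Pmaip1, the gene of NOXA, which binds Mcl1, was at the limit of detection: ILMN_2670625 had signals of 19.3, 8.68, 21.0 and 18.8 in knockdown hearts and 19.3, 19.1, 17.0 and 19.9 in wild-type hearts, and 3 of 4 knockdown and 2 of 4 wild-type hearts detected it. The difference was -0.05 (95% interval -0.30 to 0.20, limma adjusted p = 0.856), and knockdown heart 2 lay below the rest. Bad, a BH3-only protein held inactive by phosphorylation and 14-3-3 proteins, had signals of 161, 139, 149 and 112 in knockdown hearts and 168, 131, 71.8 and 138 in wild-type hearts. The groups overlapped, with the lowest value in wild-type heart 3, and the difference was 0.12 (95% interval -0.19 to 0.43, limma adjusted p = 0.687). Bid, which caspase-8 cuts to link death receptors to the mitochondrion, was detected by each of its probes on 1 array, with signals of -4.22 to 23.2. At this signal a difference in Bid was not detectable.

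The pore formers could not be compared. Bak1, which sits in the outer mitochondrial membrane, had signals of -7.71, 18.5, 12.0 and 9.32 in knockdown hearts and 12.8, -1.35, 11.6 and 15.7 in wild-type hearts, and none of the 8 hearts detected it.

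The pro-survival genes had small positive differences that did not pass. Bcl2, the founding member, has 8 probes, of which ILMN_1249366 was the only one detected in all hearts. Its signals were 62.1, 43.6, 44.1 and 41.0 in knockdown hearts and 29.3, 43.2, 28.9 and 32.5 in wild-type hearts. Knockdown heart 1 was highest and wild-type heart 2 reached the lower knockdown values. The log2 intensity was 5.96 ± 0.07 in knockdown hearts and 5.62 ± 0.16 in wild-type hearts (SD, n = 4 each), which no longer overlapped once arrays were normalized. The difference of 0.33 ± 0.109 (SE, 95% interval 0.09 to 0.57) did not pass over all probes (limma adjusted p = 0.101, unadjusted 0.0106). A second Bcl2 probe, ILMN_2706514, was detected in 2 of 4 knockdown hearts and no wild-type heart, with signals of 26.5, 14.2, 19.2 and 0.82 in knockdown hearts and 2.52, 8.63, 6.30 and 5.24 in wild-type hearts, and was too dim to be tested. The other 6 Bcl2 probes were detected on at most 1 array each.

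Bcl2l1, whose long form BCL-XL protects mitochondria, was measured by a pair of probes that gave like results. ILMN_2698430 had signals of 97.8, 58.6, 62.2 and 46.1 in knockdown hearts and 68.9, 64.9, 31.4 and 50.2 in wild-type hearts. The groups overlapped, and the difference was 0.21 (95% interval -0.11 to 0.53, limma adjusted p = 0.457). ILMN_2647885 gave 0.11 (-0.24 to 0.45, limma adjusted p = 0.763). Mcl1, a short-lived pro-survival protein, had signals of 195, 161, 140 and 97.0 in knockdown hearts and 118, 140, 130 and 137 in wild-type hearts. The wild-type values lay inside the knockdown range, and the difference was 0.09 (95% interval -0.21 to 0.39, limma adjusted p = 0.769). The intervals reach 0.53 for Bcl2l1, 0.39 for Mcl1 and 0.43 for Bad, so the data do not show that these genes were alike in both groups.

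**Figure D4:**
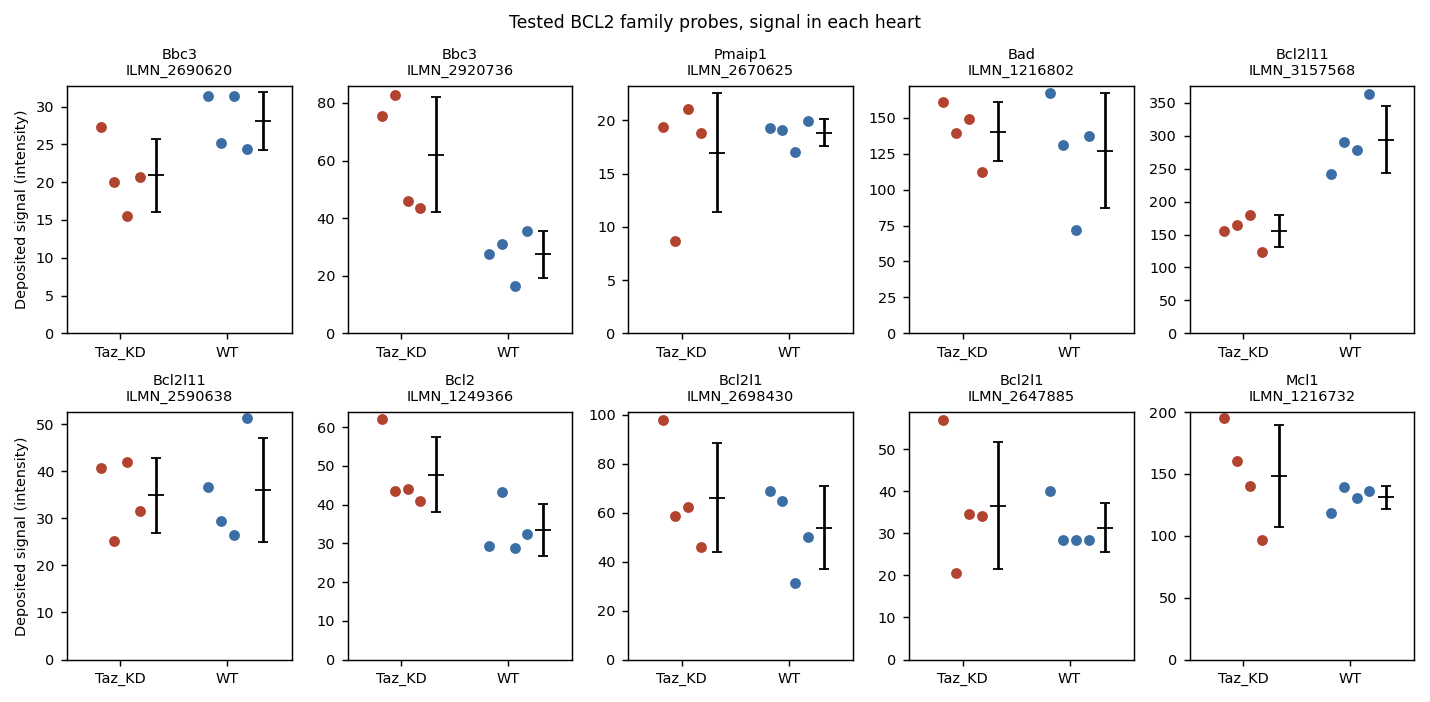
Deposited signal (vertical axis, from 0) of the 10 tested BCL2 family probes in each heart, 4 Taz knockdown hearts left of 4 wild-type hearts, with mean and SD in black. The groups are apart for Bbc3 ILMN_2920736 (43.7 to 82.7 against 16.3 to 35.4) and Bcl2l11 ILMN_3157568 (123 to 180 against 243 to 364), while the other 8 probes overlap.

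After normalization the groups did not overlap for 4 of the 10 tested member probes: both of Bbc3, 1 of Bcl2l11 and 1 of Bcl2. Among all tested probes 14.6% did not overlap.

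The genes whose log2 values over the 8 hearts lay closest to those of the called probes were found among the 6888 other tested genes, after each probe was centred on its own mean. For Bbc3 (ILMN_2920736) the nearest were Iah1, an esterase gene, at a root mean square distance of 0.11, Ghitm, an inner mitochondrial membrane protein, at 0.15, and Prmt3, an arginine methyltransferase of the ribosome, also at 0.15. For Bcl2l11 (ILMN_3157568) they were the cytokine gene Il15 at 0.15, Ddo, which oxidises D-aspartate, at 0.15 and the muscle kinase gene Srpk3 at 0.16. The members' own values spread around their means by 0.46 and 0.50 in the same unit. All 6 neighbours passed the limma test in the direction of the member, which their closeness to it largely fixes.

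The rest of the family was looked at next. Of 5 further pro-survival genes 1 was tested, and of 11 further pore-forming and BH3-only genes 5 were tested. Only Bik passed, as lower, where 3.70% of all tested genes had a probe that passed as lower. With so few genes tested, that count is too small to be read as more or less than this share. Bik, a BH3-only protein of the endoplasmic reticulum, was lower: its signals were 151, 157, 135 and 106 in knockdown hearts and 213, 213, 161 and 232 in wild-type hearts. All knockdown hearts lay below all wild-type hearts. Bik fell by 0.57 log2 units (SE 0.106), or 1.49-fold (95% interval 1.27 to 1.75), at a limma adjusted p of 0.00866. The Bik call held with any 1 heart left out and was lost without the dimmest array of each group (-0.56, limma adjusted p = 0.0511). The other genes tested did not pass. These were Bcl2l2, a pro-survival gene (-0.11 by its brighter probe), the mitophagy receptor genes Bnip3l (-0.27) and Bcl2l13 (0.09), Becn1 of autophagy (0.06) and Bcl2l12 (-0.28 and 0.03 by its probes). Bok, Hrk, Bmf, Bnip3, Bcl2l10, Bcl2l14 and Bcl2a1d were not tested, since no probe of theirs was detected on 4 arrays.

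Genes downstream of the mitochondrial pore gave no call. None of the 11 tested genes of the 18 in the caspase activation list passed, where 7.32% of all tested genes had a probe that passed in either direction. Their differences by the brightest probe ran from -0.21 to 0.30 with a median of -0.02, beside -0.01 over all 6889 tested genes. Apaf1, which assembles the apoptosome, stood at -0.02 (95% interval -0.24 to 0.20) and the initiator caspase gene Casp9 at 0.04 (-0.23 to 0.31). Cycs, the gene of cytochrome c, stood at -0.18 (-0.50 to 0.15) and Diablo, which frees caspases from their inhibitors, at 0.03 (-0.22 to 0.27). Of the 10 genes of the death receptor arm 5 were tested and none passed, beside the same 7.32%, with a median of 0.06. Both lists are too small for the lack of a call to be read as less than that share. Tnfrsf10b, a receptor for TRAIL, stood at 0.42 (95% interval -0.02 to 0.85, limma adjusted p = 0.262).

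Of 23 genes for partners and handlers of BCL2 family proteins, 19 were tested, 2 rose and 17 did not pass. Their median was 0.01, beside -0.01 over all tested genes, of which 3.61% had a probe that passed as higher. Dynll1, the dynein light chain that is known to hold BIM at microtubules, had signals of 938, 616, 797 and 643 in knockdown hearts and 624, 489, 357 and 528 in wild-type hearts. Its second lowest knockdown value stood just above the highest wild-type value and its lowest just below it. Dynll1 rose by 0.53 log2 units (SE 0.131), or 1.45-fold (95% interval 1.19 to 1.77, limma adjusted p = 0.0363). Vdac3, a channel of the outer mitochondrial membrane, rose by 0.53 ± 0.139 (SE), also 1.45-fold (1.17 to 1.79, limma adjusted p = 0.0450), with signals of 599 to 1121 in knockdown hearts and 441 to 690 in wild-type hearts. Both calls were near the threshold. Dynll1 kept its call only without knockdown heart 2 or wild-type heart 1, and Vdac3 only without knockdown heart 3 or knockdown heart 4; the other single omissions gave limma adjusted p of up to 0.0996 for Dynll1 and 0.118 for Vdac3. Under a fit with the replicate number as a block the limma adjusted p were 0.0567 for Dynll1 and 0.0643 for Vdac3, and with knockdown heart 4 and wild-type heart 3, the dimmest arrays, left out they were 0.157 for Dynll1 and 0.0846 for Vdac3. Without the detection filter they were 0.0624 for Dynll1 and 0.0831 for Vdac3. Vdac3 also missed the threshold on the deposited quantile-normalized table (limma adjusted p = 0.0605) and with median scaling (0.0635). Vdac2, which is known to hold Bak1, stood at 0.09 and Vdac1 at -0.01. Tmbim6, an anti-apoptotic protein of the endoplasmic reticulum, stood at 0.37 (limma adjusted p = 0.0636).

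**Figure D5:**
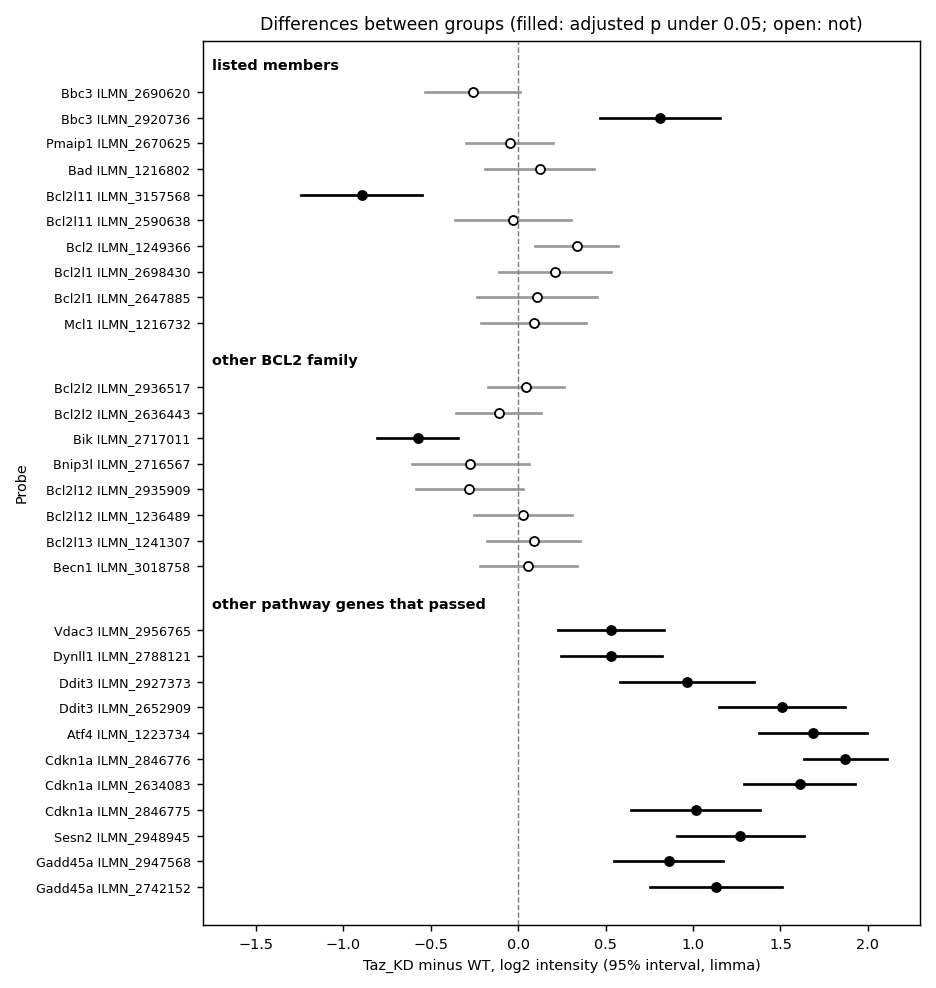
Difference in log2 intensity between 4 Taz knockdown and 4 wild-type hearts (horizontal axis, bars are 95% intervals from limma) for the tested probes of the listed members, of other BCL2 family genes, and of the other pathway genes that passed. Filled points passed an adjusted p of 0.05: the members Bbc3 (0.81) and Bcl2l11 (-0.89), Bik (-0.57), and genes of the other pathway lists from Vdac3 (0.53) to Cdkn1a (1.87). Sesn2 and the dimmer Ddit3 probe passed the detection filter only through the knockdown hearts.

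Among transcription factors known to drive BCL2 family genes, 8 of 15 were tested, 2 rose and 6 did not pass. Over all tested genes, 3.61% had a probe that passed as higher. Ddit3, the gene of CHOP, which is known to induce Bbc3 and Bcl2l11 in endoplasmic reticulum stress, had signals of 1137, 1574, 859 and 1072 in knockdown hearts and 391, 431, 284 and 410 in wild-type hearts by its brighter probe. All knockdown values exceeded all wild-type values. Ddit3 rose by 1.51 ± 0.164 (SE), or 2.85-fold (95% interval 2.22 to 3.66, limma adjusted p = 0.000245). Its dimmer probe was detected in 4 of 4 knockdown hearts and 1 of 4 wild-type hearts, so it passed the filter through the knockdown hearts and adds no size to this. Atf4, which lies upstream of CHOP, rose 3.22-fold (2.59 to 3.99). Trp53 and Nfkb1 have no probe in the annotation used here. Of 18 genes known as p53 targets outside the family, 11 were tested, 3 rose and 8 did not pass, beside the same 3.61% of all tested genes. By their brightest probe 9 of the 11 had a positive difference, with a median of 0.41, beside -0.01 over all tested genes. The counts of this list were not tested against that share. The 3 that rose were Cdkn1a, an inhibitor of the cell cycle (1.87, 1.61 and 1.02 by its 3 probes), Sesn2 and Gadd45a (1.13 and 0.86). Sesn2 was detected in 4 of 4 knockdown hearts and 1 of 4 wild-type hearts, so it was tested only because of the knockdown hearts, and its difference was 1.27, or 1.08 when values below detection were lifted to the array's lowest detected one. Sesn2 and Gadd45a are known to be induced by ATF4 as well as by p53. Mdm2, the ubiquitin ligase of p53 and a target of it, stood at -0.0032 and 0.20 by its tested probes, Ccng1 at -0.14 by its brightest and Phlda3 at 0.48 and -0.13, and none of them passed. Mdm2, Ccng1 and Phlda3 were picked with their values known from the 8 that did not pass. The part of p53 or of ATF4 in any of these values was not tested. These lists were written with earlier results of these data known.

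Markers of the cell types a whole heart can hold were measured beside these genes. Of the heart muscle markers, Myl2 had signals of 42871 to 49282 in knockdown hearts and 40474 to 48148 in wild-type hearts, and none of 6 tested heart muscle genes passed. Pln was dim, with signals of 37.2 to 87.1 over all hearts, and Ryr2 was detected in 1 heart of each group and not tested. Of the 3 tested leukocyte genes 1 passed, Lyz2 at -0.48, which is the direction of Bcl2l11 and Bik, while Cd52 at -0.35 and Laptm5 at -0.21 did not. Over all tested genes, 3.70% had a probe that passed as lower, and 3 genes are too few to be read against that share. Lyz2 passed near the threshold (limma adjusted p = 0.0450) by 1 probe, and its other probes were not tested. The summed signal of the 10 leukocyte genes with a probe was 1509 to 2115 in knockdown hearts and 2123 to 2676 in wild-type hearts. Of the 10, 7 (Ptprc, Cd3e, Cd3g, Cd79a, Cd79b, Itgam and Adgre1) were detected in no heart. The leukocyte sum is mostly Lyz2, whose mean non-normalized signal was 1173 in knockdown hearts and 1598 in wild-type hearts. All marker sums here were taken from the deposited quantile-normalized values, not from the log2 intensities that were tested. None of the 5 atrial markers passed; all had negative differences, with a median of -0.71, and summed signals of 29844 to 41600 in knockdown hearts and 34749 to 63491 in wild-type hearts. The smooth muscle list summed to 14479 to 22180 in knockdown hearts and 8403 to 12728 in wild-type hearts. This sum is mostly Acta2, which rose (0.85 by its brightest probe), the direction of Bbc3. Tagln at -0.42 and Myh11 at -0.33 did not pass, Cnn1 was detected in no heart, and the median of the 3 tested genes was -0.33. All 3 tested red cell genes had positive differences and none passed: Hba-a1 at 0.09, Alas2 at 0.59 and Slc4a1 at 0.94 (limma adjusted p = 0.0583). The part of leukocytes, atrial tissue, smooth muscle or red cells in the values of Bcl2l11, Bik and Bbc3 was not tested. Summed signals of endothelial markers were 5885 to 6910 in knockdown hearts and 5881 to 7267 in wild-type hearts. Those of fibroblast markers were 3151 to 3959 in knockdown hearts and 3439 to 4273 in wild-type hearts. Red cell markers, nearly all of it Hba-a1, summed to 38705 to 48785 in knockdown hearts and 38719 to 48533 in wild-type hearts, and adipose markers to 8.91 to 64.9 in knockdown hearts and -2.82 to 390 in wild-type hearts.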

How the data were processed

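Total RNA from 8 hearts was extracted with Trizol, cleaned on a column with DNase and amplified to biotin-labelled RNA for Illumina arrays, per the labels' protocols. For each probe and array the authors deposited an intensity, non-normalized per the file headers and, as its negative values show, background-subtracted, beside a detection p-value. A second deposited table holds the same intensity values after quantile normalization, as the identical upper quartile of every array shows. How the background was subtracted is not given in the sources used here. The description of each sample gave its group and number; the titles number the knockdown hearts otherwise (3 of them are replicate 1 there), so the replicate block rests on the descriptions.

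The neqc function of limma 3.58.1 (R 4.3.3) did the normexp correction from the detection p-values, added 16, quantile-normalized the arrays and took log2. The 9397 of 25697 probes detected (p below 0.05) in 4 or more of 8 hearts were tested with lmFit and eBayes, two-sided, Benjamini-Hochberg adjusted over all of them; intervals are 95%. The added 16 shrinks the fold changes of dim probes. Each label names a separate mouse. The fit was tested on simulated data. Same-numbered hearts deviated together at 0.17, 0.0053, -0.09 and -0.0053 (correlations), so the numbers were not used as pairs. The platform annotation, with symbols updated by Entrez number, named 23978 probes.

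The members and lists were chosen with earlier results of these data known. Named genes are all members, Taz, pathway genes that passed (at most 6 a list) and the 3 nearest genes of each called member; any other gene was picked with its values known. The alternatives were another normalization, background, offset, filter and variance prior, averaged probes, the replicate number as a block and each heart left out; raised undetected values and omission of the dimmest array of each group were added after seeing the data.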

Additional observations from a re-analysis of the deposited data

Results flagged for a closer look

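Among the 44 groups of 4 hearts examined, those of the tested member probes and of the pathway probes that passed, 1 held a heart far from its group, where chance alone flags about 1 in 20. Atf4 had a log2 intensity of 7.67 in knockdown heart 3, against 8.17 to 8.25 in the other knockdown hearts.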

How the results depend on the processing

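The call of 1 higher member (Bbc3) and 1 lower member (Bcl2l11) held with each heart left out in turn (1 to 1 for both counts), with the dimmest array of each group left out and under the other scalings, offset and variance prior, although Bbc3 was 0.51 with an offset of 50 and 0.45 without normexp. With probes averaged per gene, 0 members were higher and 0 lower, and the dimmer Bbc3 probe's negative value turned to the gene's mean of 0.28. With detection required at p under 0.01 on all 8 arrays, 0 members were higher, since the Bbc3 probe was not tested there, by construction. The count of all probes called lower was 297; it was 451 with an offset of 50, 471 with an intensity trend, 184 with the replicate number as a block, and 188 to 261 with 1 heart left out (the 321 higher were 197 to 264). Without the dimmest array of each group the counts were 173 higher and 142 lower. The cause of these shifts was not tested. The replicate block changed no member's call and ended those of Vdac3 and Dynll1. Values near 0 changed sign: Pmaip1 was 0.0040 with undetected values raised, and with 1 heart left out Pmaip1 ranged from -0.10 to 0.0404, the dimmer Bcl2l11 probe from -0.10 to 0.0937 (0.0623 without knockdown heart 2) and Bad from -0.0069 to 0.22. Of the other single-gene results, 382 kept direction and side of the threshold and 23 kept direction but no longer passed. Probes near the detection limit, such as Bbc3, Pmaip1 and most Bcl2 probes, limit what could be seen.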
